A study of Mus musculus with 6 samples.

Results

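The 10 genes described here are the 4 MEF2 transcription factor genes (Mef2a, Mef2b, Mef2c and Mef2d), 2 coactivator genes of the myocardin family (Mamstr and Myocd) and the 4 class IIa histone deacetylase genes (Hdac4, Hdac5, Hdac7 and Hdac9). They were taken by symbol from a count table of 24594 genes, and all 10 had an entry. The set was selected on family membership and on the lower level of Mamstr in the mutant, which was already known, so the genotype values of Mamstr are a description and not an independent test.

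Nuclear RNA was sequenced from NeuN-positive cerebellar nuclei of mice aged 7 months, labelled as granule cells, which are small excitatory neurons that fill the inner layer of the cerebellar cortex. The control group (WT) was Ezh1(wt/wt);Neurod1-Cre and the mutant group (cKO) was Ezh1(cKO/cKO);Neurod1-Cre, with 3 libraries each. Both groups thus carry the same Cre recombinase, named for a transcription factor gene of granule neurons, and differ by the labels only in Ezh1. Ezh1 is one of the enzymes of PRC2, which puts the repressive Polycomb mark H3K27me3 on histone H3. The comparison asks whether nuclear transcripts of neurons that no longer divide change when this enzyme is deleted. The labels give neither the deleted part of the gene nor the number of animals behind the libraries, so the spread behind each p-value is that of these samples and may be technical.

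MEF2 proteins bind an A/T-rich DNA element and switch genes on in response to calcium and neuronal activity. In neurons they are known for controlling survival and the number of synapses. Class IIa HDACs have little deacetylase activity of their own. They bind MEF2 and bring in corepressors, and phosphorylation by calcium-dependent and salt-inducible kinases sends them out of the nucleus. Mamstr, also known as MASTR, and Myocd are SAP-domain coactivators. Mamstr acts with MEF2 and is best known from skeletal muscle, and Myocd acts with SRF in smooth and cardiac muscle and can also bind MEF2.

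Libraries held 6340236 to 8284768 counts. Ezh1, the targeted gene, was at 71.0, 75.6 and 83.3 CPM in WT and 52.5, 50.9 and 55.6 CPM in cKO (counts scaled to 1000000 counts of the library), a log2 fold change of -0.53 (SE 0.10, edgeR quasi-likelihood test, adjusted p = 0.00672). In the fit that left out WT replicate 3 (-0.47, adjusted p = 0.115), and in that leaving out cKO replicate 1 (-0.53, adjusted p = 0.0833), Ezh1 was not called. Markers of granule cells were high in every library (3176 to 3385 CPM in sum over 9 genes in WT, 3147 to 3909 in cKO), with Gabra6 at 149 to 165 CPM in WT and 151 to 162 CPM in cKO. Of these 9 markers edgeR called 1, Neurod1, the gene that the Cre is named for (142 ± 10.4 CPM in WT against 307 ± 17.7 CPM in cKO, log2 fold change 1.11, adjusted p = 8.04e-10). Other cell types were represented at lower levels. The sums of 6 Purkinje cell markers were 441 to 631 CPM in WT and 380 to 556 in cKO, of which the inositol trisphosphate receptor gene Itpr1 alone made up 392 to 558 and 339 to 482, and the other 5 markers 49.6 to 73.6 and 40.8 to 73.7. The sums of 6 interneuron markers were 144 to 165 and 149 to 156 CPM, and those of 5 oligodendrocyte markers 226 to 417 and 285 to 639. For 6 markers of astrocytes and Bergmann glia the sums were 103 to 133 and 122 to 132 CPM. No marker on these lists was at 0 in all 6 libraries.

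Promoter sequence is shown for Mamstr, the member whose level differed most between the genotypes among those tested, and for Hdac5, the most abundant member. The promoter of Hdac5 holds a sequence match to the MEF2 consensus element, and binding there was not tested. Each is the 250 bases before the RefSeq transcription start (GRCm38.p6), read 5′ to 3′ on the strand of the gene. Capitals mark a match to the MEF2 consensus element, and the Mamstr window has none. The RefSeq span of Mamstr reaches 785 bases further upstream than the start used here, and no GENCODE exon overlaps either stretch.
Mamstr, chr7:45639727-45639976, plus strand: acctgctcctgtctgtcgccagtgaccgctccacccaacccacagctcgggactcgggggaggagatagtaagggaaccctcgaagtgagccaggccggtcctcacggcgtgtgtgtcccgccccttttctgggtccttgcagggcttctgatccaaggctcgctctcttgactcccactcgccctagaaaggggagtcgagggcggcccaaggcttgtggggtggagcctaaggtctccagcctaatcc
Hdac5, chr11:102230173-102230422, minus strand: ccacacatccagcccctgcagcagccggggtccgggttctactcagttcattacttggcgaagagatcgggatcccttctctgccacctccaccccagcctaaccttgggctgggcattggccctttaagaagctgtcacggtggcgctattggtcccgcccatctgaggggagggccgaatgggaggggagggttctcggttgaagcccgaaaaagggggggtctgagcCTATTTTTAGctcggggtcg

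Windows of 300 bases, from 250 before to 50 after a start, were on hand for 9 of the 10 members (15 windows). The MEF2 consensus was found in the windows of Hdac5 and Mef2a (CTAAAAATAG, with 2 bases before the start and 8 from it on), 2 of 15, where 3.19% of all 32851 mouse windows held one. The E-box (CANNTG), bound by NeuroD and other basic helix-loop-helix factors, was in 9 of the 15 (60.0%), against 72.3% of all windows. No member window held the cAMP response element (TGACGTCA, in 1.79% of all) or the SRF-binding CArG box (in 1.63% of all). All 4 motifs read the same on both strands. The 300-base windows also differed in CpG dinucleotides, of which the median mouse window had 7. Those of Hdac4, Mef2a and Mef2d had 32, 27 and 24, that of Mamstr 15, that of Hdac5 18 and that of Mef2b 11. The windows of Hdac7 had 31, 6, 35 and 5, those of Mef2c 1, 10 and 4, and the 2 of Hdac9 0 and 3.

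Of the 10 members, 8 passed the filter on low counts, and Mef2b and Myocd did not. EdgeR called 1 of the 8, Mamstr, which was lower in cKO, beside 0.587% of the 13115 genes tested and 0.259% called lower (43 higher and 34 lower, or 69 and 32 when scaled by library size alone). These counts dropped to 10 and 3 when WT replicate 3 was left out, and leaving out WT replicate 1 gave 116 and 133. The other 7 tested members were not called, and for each of them the 95% interval of the fold change lay within 2-fold, as it did for 81.0% of all tested genes. The median log2 fold change of the 8 was -0.03, with 3 positive and 5 negative, beside -0.01 over all genes tested. Mamstr and Hdac5 were the 2 of the 8 whose WT and cKO libraries did not overlap, beside a background of 16.3% of tested genes (8.40% lower and 7.91% higher in cKO). In these bulk samples, fewer cells of a type and less RNA per cell cannot be told apart.

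**Figure D1:**
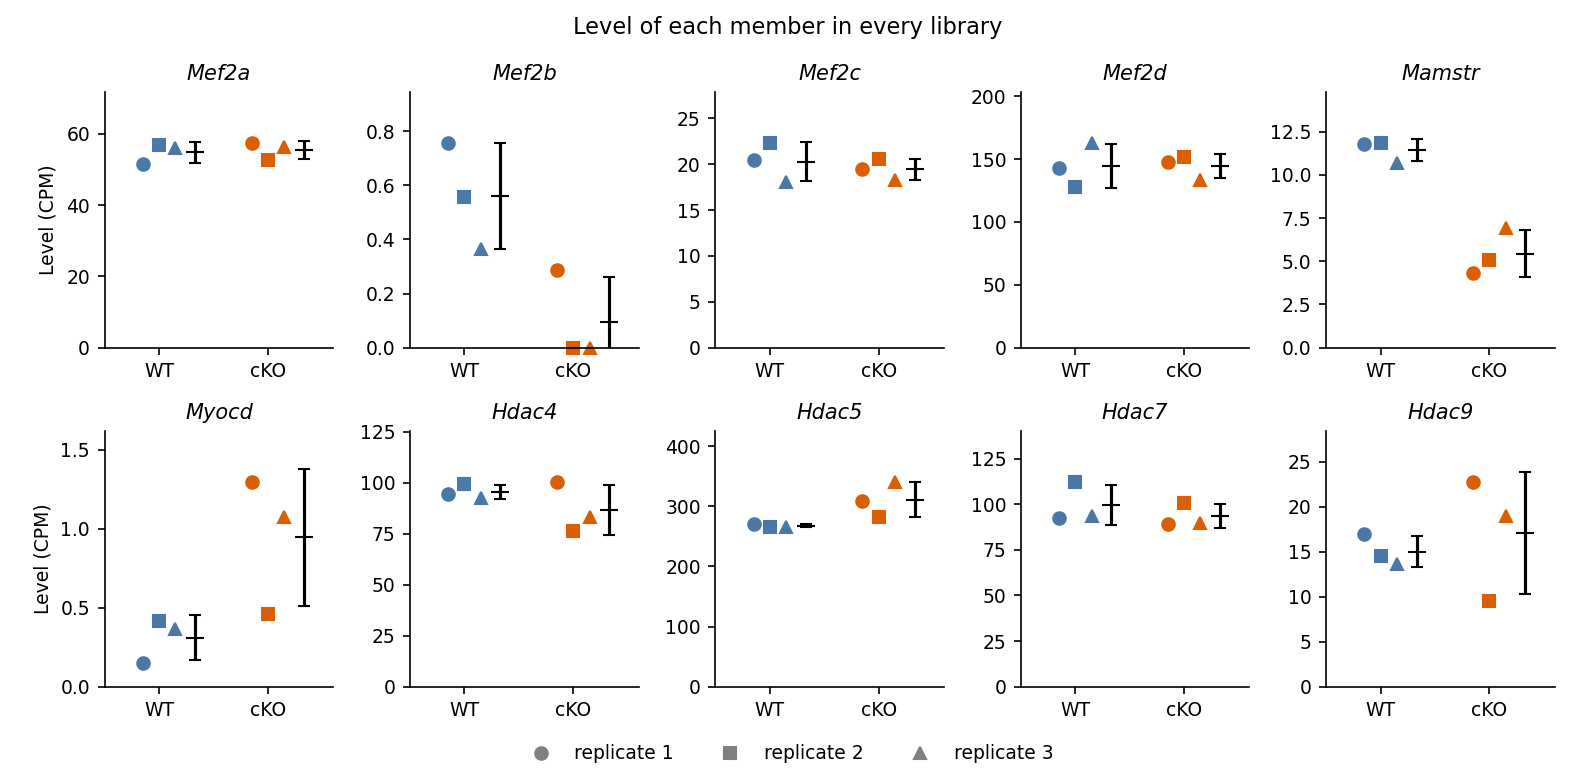
Level of each member in CPM (y axes from 0, each with its own range) in the 3 WT libraries (blue) and the 3 cKO libraries (orange). Symbols stand for replicate numbers, and the black bars are the mean and SD of a genotype. Mamstr lies between 10.7 and 11.8 CPM in WT and between 4.32 and 6.93 CPM in cKO, while Mef2a, Mef2c and Mef2d overlap between genotypes.

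Mamstr (NCBI gene 74490; chromosome 7, 45639192 to 45648207, GRCm38, plus strand) had 78, 85 and 88 counts in WT replicates 1 to 3 and 30, 33 and 45 counts in cKO replicates 1 to 3. Scaled to library size, the levels were 11.8, 11.8 and 10.7 CPM in WT and 4.32, 5.09 and 6.93 CPM in cKO. The highest cKO library thus lay well below the lowest WT library. The mean fell from 11.4 ± 0.66 to 5.45 ± 1.34 CPM (SD, n = 3 each), which is 52.4% lower. The edgeR log2 fold change was -1.07 (SE 0.24, 95% interval -1.55 to -0.59, adjusted p = 0.0271). An exact two-sided permutation test gave p = 0.1, which is as small as 3 libraries a group permit. DESeq2 gave a log2 fold change of -1.07 and an unadjusted p of 2.97e-04 but no adjusted p. The call was lost without WT replicate 2 (log2 fold change -1.04, adjusted p = 0.149), WT replicate 3 (-1.12, adjusted p = 0.119) or cKO replicate 1 (-0.92, adjusted p = 0.217), and the direction was the same in all 6 fits that left out a library.

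**Figure D2:**
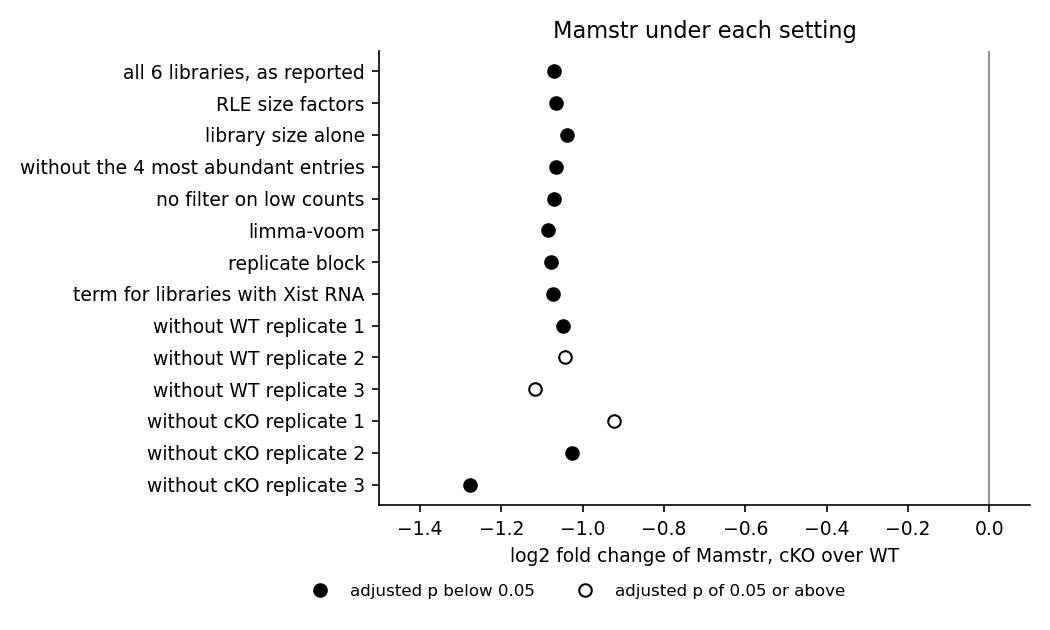
log2 fold change of Mamstr, cKO over WT (x axis), under each setting that gave an adjusted p (y axis). Filled points have an adjusted p below 0.05 and open points do not. All values lie between -1.28 and -0.92, and the 3 open points are fits with 5 libraries.

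EdgeR called none of the 3 nearest tested genes on each side of Mamstr. Rasip1, which encodes a Ras-interacting protein of vessel lining cells, ends 0.1 kb before it and was at 3.26 ± 0.87 CPM in WT and 2.92 ± 0.41 CPM in cKO (log2 fold change -0.17, SE 0.37, edgeR adjusted p = 0.907). Fut2, a fucosyltransferase gene that starts 0.384 kb after it, was at 2.90 ± 0.77 and 1.93 ± 1.41 CPM (-0.58, SE 0.47, adjusted p = 0.682, and -1.35 with adjusted p = 0.292 without cKO replicate 2). In the remaining 4 neighbours the log2 fold changes were 0.16 for Bcat2, -0.19 for A030001D20Rik, -0.23 for Car11 and -0.50 for Dbp. Every cKO library of Car11 (132 to 141 CPM) was below every WT library (152 to 172 CPM), as in 8.40% of tested genes. Its edgeR adjusted p was 0.240, and the libraries of the other neighbours overlapped between genotypes. Dbp was called without WT replicate 1 (-0.78, adjusted p = 0.00323). The intervals of Rasip1, Fut2 and Dbp are wide, and the difference between Mamstr and its neighbours was not tested.

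Markers of the tissues in which myocardin family genes are best known were low. The sums of 8 vessel and mural cell markers were 11.7 to 14.9 CPM in WT and 8.34 to 14.5 CPM in cKO, and among them the smooth muscle gene Myh11 had 3 to 11 counts a library in WT and 2 to 4 in cKO. For 5 skeletal muscle genes the sums were 27.0 to 32.5 CPM in WT and 30.1 to 112 CPM in cKO. Of these, the titin gene Ttn alone made up 23.7 to 29.6 CPM in WT and 25.6 to 108 CPM in cKO, the 108 CPM in cKO replicate 1. The other 4 genes summed to 1.97 to 3.34 CPM in WT and 2.62 to 4.48 CPM in cKO. Of 2 markers of unipolar brush cells, a rarer excitatory neuron of the same cortex, Eomes was at 6.13 to 15.7 CPM in WT and 18.7 to 21.6 CPM in cKO, without overlap, as were 7.91% of tested genes in that direction. Its log2 fold change was 1.0 (SE 0.25, edgeR adjusted p = 0.0868). The other marker, Lmx1a, overlapped between the genotypes, with 0 to 8 counts in WT and 0 to 7 in cKO. Their part in the level of Mamstr was not tested.

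Among 9846 genes averaging 5 CPM or more, those whose log2 CPM followed that of Mamstr most closely over the 6 libraries were Pithd1 (Pearson r = 0.994), Bcl7c (0.989), Rprd1a (0.987), Aldh1l2 (0.984) and Atf7ip (0.983). Since the 6 libraries form 2 genotypes, a gene that is lower in cKO has a high r by this alone. Atf7ip encodes a cofactor of the histone methyltransferase SETDB1, and Aldh1l2 a mitochondrial enzyme of folate metabolism. In all 5 genes the highest cKO library was below the lowest WT library, as in 8.40% of tested genes. Selection on likeness to Mamstr, itself separated in this way, favours that pattern, so it is not a separate result. The differences were smaller than that of Mamstr. Log2 fold changes were -0.54 for Aldh1l2 (edgeR adjusted p = 0.00128), -0.53 for Pithd1 (0.229), -0.37 for Rprd1a (0.102), -0.35 for Atf7ip (0.0394) and -0.26 for Bcl7c (0.333). Atf7ip lost its call without WT replicate 2, WT replicate 3 or cKO replicate 1 (adjusted p of 0.153, 0.177 and 0.332), and also with library size alone (0.0623) and with a replicate block (0.0509), while Rprd1a was called with no filter on low counts (-0.37, adjusted p = 0.0395).

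The MEF2 factors that Mamstr acts with were near the same level in both genotypes. Mef2d (chromosome 3, 88141941 to 88172091) was at 143, 128 and 163 CPM in WT and 148, 152 and 133 CPM in cKO. The cKO values lay inside the WT range, and the log2 fold change was -0.0042 (SE 0.09, 95% interval -0.19 to 0.18). Mef2a (chromosome 7, 67231163 to 67376456) was at 51.5, 57.0 and 55.9 CPM in WT and 57.4, 52.8 and 56.3 CPM in cKO (0.02, SE 0.10, -0.19 to 0.23). Mef2c (chromosome 13, 83504017 to 83667079), also a factor of interneurons and microglia, was at 20.4, 22.3 and 18.1 CPM in WT and 19.4, 20.5 and 18.3 CPM in cKO (-0.06, SE 0.15, -0.37 to 0.25). In fold terms these intervals reach from 0.877 to 1.13 for Mef2d, from 0.876 to 1.17 for Mef2a and from 0.775 to 1.19 for Mef2c. The signs of all 3 changed when single libraries were left out. For 8 microglia markers the sums were 15.7 to 31.7 CPM in WT and 18.7 to 25.1 CPM in cKO, so they overlapped between genotypes as Mef2c did.

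Exons of Mef2d share 492 bases with the antisense gene 1700113A16Rik, which had 16 to 31 counts a library. Reads there cannot be told apart without strand, and how many fell in the shared bases is not known from the counts. Mef2d itself had 867 to 1341 counts. Mef2a overlaps Lysmd4 on the opposite strand, with no shared exonic base.

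**Figure D3:**
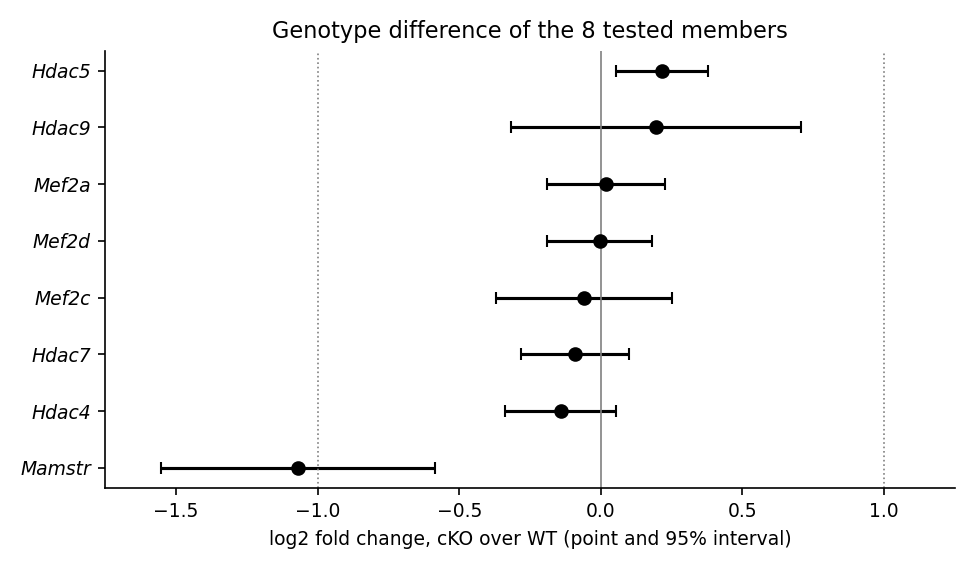
log2 fold change of the 8 tested members, cKO over WT (x axis, point and 95% interval from the edgeR fit). The dotted lines mark 2-fold in either direction. The interval of Mamstr reaches past the 2-fold line, and the others lie between the lines.

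Of the MEF2 family, Mef2b (chromosome 8, 70152761 to 70167488) was barely present. The WT libraries had 5, 4 and 3 counts of it and the cKO libraries 2, 0 and 0, below the filter on low counts. The scaled levels, 0.364 to 0.756 CPM in WT and 0.288, 0 and 0 CPM in cKO, did not overlap. Among tested genes, which do not include Mef2b, 8.40% were separated in that direction. However, in the 2 cKO libraries without a count, a level of up to 0.463 and 0.462 CPM is allowed (3 counts of the library). Such levels would overlap those of WT. Over summed counts WT was 5.42 times cKO, with an exact 95% interval of 1.21 to 49.9 that covers counting error only. The GENCODE model of Mef2b begins upstream of the RefSeq span given here, and there its exons share 62 bases with Borcs8, a gene on the same strand with 51 to 129 counts. Whether the authors' annotation held that exon is not given in the sources used here.

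Per length, the family was mainly Mef2d. In CPM per kilobase of exon, Mef2d held 65.8 ± 3.53% of the sum of the 4 factors in WT and 66.4 ± 1.72% in cKO, Mef2a 25.7 ± 2.23% and 26.3 ± 1.85%, Mef2c 7.44 ± 1.26% and 7.15 ± 0.22%, and Mef2b 1.08 ± 0.41% and 0.18 ± 0.31% (SD, n = 3 each). The shares of the 3 tested factors overlapped between the genotypes.

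Of the class IIa HDACs, Hdac5 (chromosome 11, 102195747 to 102230172) was by far the most abundant, at 271, 266 and 266 CPM in WT and 310, 282 and 340 CPM in cKO. Every cKO library was above every WT library, and the cKO libraries were spread more widely (311 ± 29.2 against 268 ± 2.68 CPM). The log2 fold change was 0.22 (SE 0.08, 95% interval 0.05 to 0.38), which did not pass the threshold after adjustment (edgeR adjusted p = 0.242, and 0.0914 to 0.579 without single libraries). Hdac5 lies 0.969 Mb from Ezh1 on the same chromosome.

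Hdac4 (chromosome 1, 91928779 to 92195702) was at 94.3, 99.6 and 92.7 CPM in WT and 100.3, 76.4 and 83.0 CPM in cKO (-0.14, SE 0.10, 95% interval -0.34 to 0.05). Hdac7 (chromosome 15, 97792661 to 97844502) was at 92.7, 112 and 93.8 CPM in WT and 89.4, 101 and 89.9 CPM in cKO (-0.09, SE 0.09, -0.28 to 0.10). The genotypes overlapped in both genes, and cKO replicate 1 had the highest Hdac4 level of all 6 libraries. Hdac9 (chromosome 12, 34047580 to 34917095), which also gives a short form without a deacetylase domain, was at 16.9, 14.5 and 13.6 CPM in WT and 22.7, 9.57 and 18.9 CPM in cKO. Its cKO libraries included both the highest and the lowest value, so the interval was wide (0.19, SE 0.24, -0.32 to 0.71). Leaving out cKO replicate 2 gave Hdac9 a log2 fold change of 0.48 (edgeR adjusted p = 0.258), and leaving out cKO replicate 1 gave -0.07 (0.968).

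Per kilobase of exon, Hdac5 made up 58.9 ± 1.99% of the sum of the 4 class IIa genes in WT (60.1, 56.6 and 60.0%) and 63.9 ± 2.52% in cKO (62.9, 62.0 and 66.8%). The shares of Hdac5 did not overlap between the genotypes, and neither did those of Hdac4, which were lower in cKO (14.5, 14.7 and 14.5% in WT and 14.1, 11.7 and 11.3% in cKO). Shares of 1 sum move against each other, and these were not tested. Hdac7 held 24.8 ± 2.0% and 21.9 ± 2.84%, Hdac4 14.6 ± 0.12% and 12.4 ± 1.54%, and Hdac9 1.74 ± 0.21% and 1.83 ± 0.67%. In sum the 4 genes were at 478 ± 13.1 CPM in WT and 508 ± 34.0 CPM in cKO, with overlapping libraries. Exonic overlaps with other genes in the table were 29 bases with Slc48a1 for Hdac7, and 111 bases with the microRNA gene Mir8101 for Hdac5. Mir8101 had 0 counts, which does not tell how many reads fell in the shared bases.

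**Figure D4:**
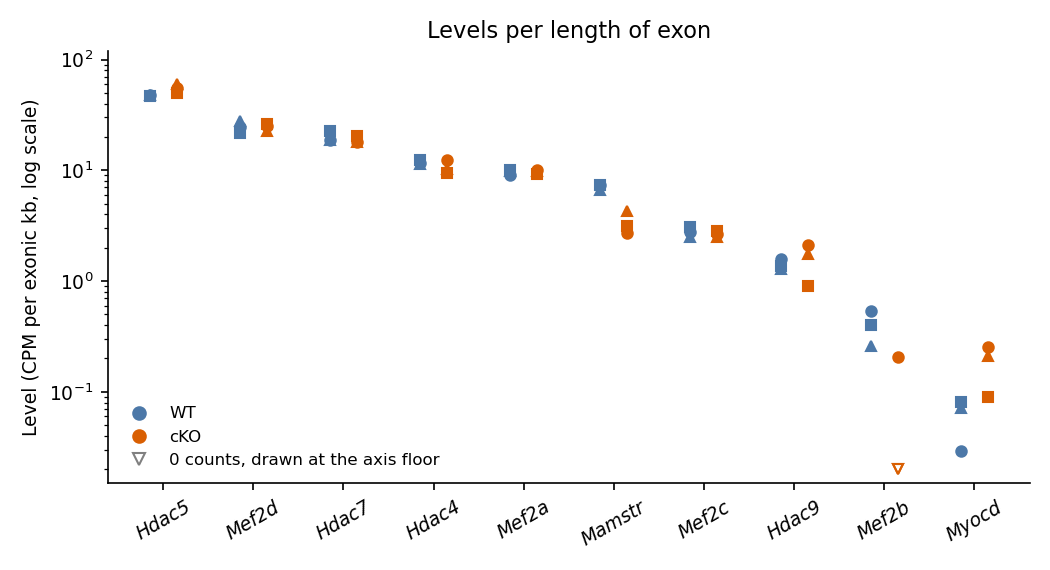
Level of each member per length of exon (y axis, CPM per exonic kilobase on a log scale) in WT (blue) and cKO (orange) libraries, ordered by the WT mean, with the replicate symbols of the plot of levels by library. Open triangles mark 0 counts and are drawn at the axis floor. Members span from 47.6 CPM per kilobase for Hdac5 to 0.061 for Myocd in WT.

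Ordered by WT level per kilobase of exon, the members were Hdac5 (47.6 ± 0.48 CPM per kilobase), Mef2d (24.7 ± 2.98), Hdac7 (20.1 ± 2.20), Hdac4 (11.8 ± 0.44), Mef2a (9.62 ± 0.51), Mamstr (7.12 ± 0.41), Mef2c (2.77 ± 0.29), Hdac9 (1.40 ± 0.16), Mef2b (0.40 ± 0.14) and Myocd (0.061 ± 0.028). Mef2d and Hdac7 overlapped between WT libraries, and every other pair of neighbours in the order was separated. On this scale Mamstr was above 58.0% of tested genes in WT, Hdac5 above 96.5% and Mef2d above 89.7%. In cKO Mamstr stood at 3.39 ± 0.83 CPM per kilobase, next to Mef2c at 2.66 ± 0.15, and their libraries overlapped there. With the span of the gene as the length, Mamstr was in place 4 and Hdac4 in place 6, and Mef2b and Hdac9 changed places, which matters for nuclear RNA because it also holds unspliced transcripts.

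Myocd (chromosome 11, 65173608 to 65269989) had 1, 3 and 3 counts in the WT libraries against 9, 3 and 7 in the cKO libraries, or 0.151, 0.418 and 0.364 CPM against 1.30, 0.463 and 1.08 CPM. The scaled levels did not overlap. Among tested genes 7.91% were separated in that direction, but that share covers genes that passed the filter, which Myocd did not. However, cKO replicate 2 and WT replicates 2 and 3 each had 3 counts, so their order rests on the scaling alone. Over summed counts cKO was 3.0 times WT (exact 95% interval 1.21 to 8.45, counting error only). With no filter on low counts edgeR gave adjusted p = 0.677 for Myocd and 0.643 for Mef2b.

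Genes that act on these factors were taken from lists of regulators, partners and described targets. Of 35 kinases, phosphatase subunits, 14-3-3 proteins and other regulators, all were tested and edgeR, DESeq2 and limma-voom called 0 (DESeq2 gave no adjusted p to 14). The median log2 fold change was 0.03, with 21 positive and 14 negative, and 7 had an unadjusted p below 0.05 (3 higher and 4 lower), beside 11.9% of all tested genes. Sik3, a salt-inducible kinase that phosphorylates class IIa HDACs, averaged 177 ± 21.2 CPM in WT against 218 ± 18.3 CPM in cKO (0.30, SE 0.09, edgeR adjusted p = 0.128). It passed without WT replicate 1 (0.37, adjusted p = 0.0439) and with no filter on low counts (adjusted p = 0.0341). The 14-3-3 gene Ywhae, whose product holds phosphorylated HDACs in the cytoplasm, averaged 52.0 ± 5.93 against 39.5 ± 3.88 CPM (-0.40, SE 0.12, adjusted p = 0.137). Sik1, the activity-induced member of the same kinase family as Sik3, averaged 7.65 ± 2.97 against 4.28 ± 0.70 CPM (-0.85, SE 0.30, adjusted p = 0.229), and it passed without WT replicate 1 (-1.12, adjusted p = 0.0361).

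Of 16 MEF2 cofactors and partners 15 were tested, with 9 positive, 6 negative and a median of 0.05. None was called by the 3 tools (5 had no adjusted p from DESeq2), and 5 of the 15 had an unadjusted p below 0.05 (3 higher and 2 lower), beside 11.9% of all tested genes. Srf, the factor through which Myocd acts, averaged 33.6 ± 3.22 CPM in WT against 25.3 ± 3.87 CPM in cKO (-0.41, SE 0.14, edgeR adjusted p = 0.195). The coactivator genes Ncoa2 and Crebbp had log2 fold changes of 0.22 (adjusted p = 0.241) and 0.18 (0.328). Of 11 other zinc-dependent HDACs and members of a corepressor complex all were tested, 7 positive and 4 negative. They had a median of 0.04, 0 calls from the 3 tools (6 with no adjusted p from DESeq2), 0 at an unadjusted p below 0.05 and 11 intervals within 2-fold. Their smallest p values belonged to Hdac1 (-0.38, adjusted p = 0.563), Hdac11 (0.13, 0.611) and Tbl1xr1 (0.17, 0.670).

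Genes described elsewhere as MEF2 targets had no common direction. Of 13 described in neurons all were tested, 8 positive and 5 negative, with a median of 0.03. The 3 tools called 0 of them (8 had no adjusted p from DESeq2), and 5 of the 13 had an unadjusted p below 0.05 (3 higher and 2 lower), beside 11.9% of all tested genes. The activity-induced factor gene Jun averaged 23.9 ± 2.25 CPM in WT against 17.2 ± 1.71 CPM in cKO (-0.48, SE 0.15, edgeR adjusted p = 0.158). The postsynaptic scaffold gene Homer1 averaged 76.8 ± 6.96 against 88.7 ± 5.51 CPM (0.21, SE 0.09, adjusted p = 0.356), and the adhesion gene Pcdh10 9.90 ± 1.29 against 13.4 ± 3.20 CPM (0.44, SE 0.21, adjusted p = 0.406). Of 11 targets described in muscle 6 passed the filter, 2 positive and 4 negative, with a median of -0.10. None of the 6 was called by edgeR or limma-voom or had an unadjusted p below 0.05, and DESeq2 gave none an adjusted p. Their smallest p values were those of the actin gene Acta1 (0.36, adjusted p = 0.791), the coactivator gene Ppargc1a (-0.12, 0.843) and the desmin gene Des (-0.09, 0.855).

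**Figure D5:**
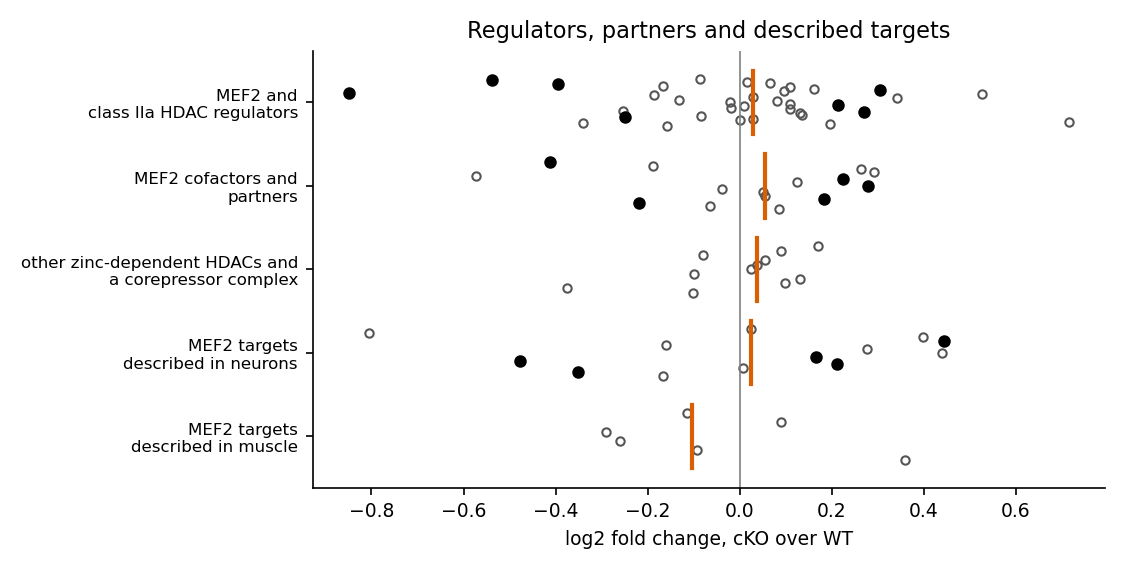
log2 fold change, cKO over WT (x axis), of each tested gene on 5 lists (y axis, spread vertically for legibility). Filled points have an unadjusted p below 0.05, open points do not, and the orange bars are list medians. The medians lie between -0.10 and 0.05.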

How the data were processed

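The authors deposited whole-number counts per gene, not normalized, in 1 column per library with rows named by NCBI gene identifiers. The submitters' processing notes name Subread and mm10. Its version, the annotation, strand use and multi-mapping reads: not given in the sources used here. Per the labels' protocols, nuclei were fixed, stained for NeuN and sorted. Symbols and positions are from RefSeq GRCm38.p6, which matched 24570 of 24594 identifiers, exon lengths from GENCODE M21 (GRCm38), and promoter windows from RefSeq GRCm38.p6.

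The test was that of edgeR 4.0.16 in R 4.3.3, with filterByExpr defaults (13115 genes), TMM factors, robust quasi-likelihood fits of genotype over all 6 libraries, and Benjamini-Hochberg adjustment over all tested genes, called below 0.05. CPM uses the library total and its TMM factor. Standard errors and 95% intervals come from the same two-sided fit. DESeq2 1.42.0, limma-voom (limma 3.58.1), other scalings, no filter, a replicate block, a term for the library with Xist RNA in each genotype, and leaving out each library were alternatives. Single values were compared by exact permutation. The fit was tested on simulated data. No 2 libraries of 1 genotype agreed within counting error (chi-square of 4.03 to 5.00 for each degree of freedom).

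All 10 members are named, with Ezh1, the 3 genes of smallest p and any called gene of each list, the 3 nearest tested genes on each side of Mamstr and of Hdac5, and the 5 genes most like Mamstr, passing over predicted models. The neighbours were added after the data were seen. Members and lists were chosen with earlier results of these data known. One gene of the lists is not reported here.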

Additional observations from a re-analysis of the deposited data

How the results depend on the processing

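Depth limits Mef2b and Myocd, and with 3 libraries a genotype no exact permutation p can go below 0.1. The counts of genes called higher and lower (43 and 34) became 69 and 32 with library size alone and 62 and 54 with DESeq2. They were 146 and 131 with no filter on low counts, and 65 and 60 with a term for the libraries with Xist RNA. Leaving out single libraries gave 10 to 116 higher and 3 to 133 lower genes. Without WT replicate 1 they were 116 and 133, without WT replicate 2 13 and 5, without WT replicate 3 10 and 3, without cKO replicate 1 10 and 4, and without cKO replicate 2 88 and 62. The cause was not tested.

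Mamstr kept its direction in every setting run (log2 fold change -1.28 to -0.92), and its adjusted p was 0.00351 to 0.0445 in the settings with all 6 libraries that gave one. The sign of Mef2d, at -0.0042, turned with library size alone (0.0285), without the 4 most abundant entries (0.0001) and with a replicate block (0.0001), all far inside its interval. Ranges without single libraries crossed 0 for Mef2a (-0.0238 to 0.0524), Mef2c (-0.14 to 0.0168), Mef2d (-0.0845 to 0.091), Hdac7 (-0.15 to 0.0026), Hdac9 (-0.069 to 0.48), Des (-0.24 to 0.0117) and Tmem101 (-0.43 to 0.0744). The deviations of same-numbered libraries correlated at 0.15, 0.0053 and -0.04, and those of differently numbered libraries at -0.10 to 0.11. With 3 libraries a genotype, these values cannot decide whether the numbers pair the libraries. The replicate block gave 49 higher and 41 lower genes, Mamstr at -1.08 (adjusted p = 0.0445) and Atf7ip at -0.35 (0.0509). Atf7ip was also not called with library size alone (-0.32, adjusted p = 0.0623).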

Other observations

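Among the 3 nearest tested genes on each side of Hdac5, which were looked at after its values were seen, 3 of 6 had all cKO libraries above all WT libraries, beside 7.91% of all tested genes, and edgeR called none. Lsm12, which encodes an RNA-binding Lsm-domain protein, had 5.91 ± 0.12 CPM in WT against 9.89 ± 0.15 CPM in cKO (SD, n = 3 each; log2 fold change 0.74, SE 0.23, edgeR adjusted p = 0.142, and 0.148 to 0.421 without single libraries). G6pc3, a glucose-6-phosphatase gene that ends 1.67 kb before Hdac5, had 7.25 ± 1.37 against 9.75 ± 0.35 CPM (0.42, adjusted p = 0.495), and Tmub2 15.3 ± 1.41 against 18.5 ± 1.78 CPM (0.28, adjusted p = 0.532). The log2 fold changes of the other neighbours were -0.18 for Tmem101, -0.12 for Atxn7l3 and -0.09 for Ubtf.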
